A study of Mus musculus with 103 samples.

Results

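The YAP target genes described here are 7 genes whose transcription is a widely used readout of the coactivators YAP and TAZ: Ccn1 (also written Cyr61), Ccn2 (also written Ctgf), Ajuba, Ankrd1, Amotl2, Lats2 and Axl. They were chosen by name, and their probe sets were found through the annotation of the array. Of the 7 genes, 6 had at least 1 probe set named for them alone, 12 probe sets in all among 28896 probe sets that name 1 gene, and these 6 stand among 17096 genes. Axl, a receptor tyrosine kinase, had none in the annotation used and was not analysed here. Where a gene had several probe sets, the one with the highest mean over all samples stood for it.

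The study measured mouse samples on Affymetrix arrays with perfect match probes, and its design text concerns cells that express Prom1, their tracing and their targeting with oncogenes. Primary tumours (56 samples) and metastases (7 samples) were dissected pieces of tissue. By organ, the primaries were 4 adenocarcinomas and 7 adenomas of the stomach, 14 liver tumours labelled hepatocellular carcinoma/cholangiocarcinoma (HCC/CC) and 2 hepatoblastomas, 8 prostatic and 2 lung adenocarcinomas, 3 uterine carcinomas, 5 large and 3 small intestinal adenomas, and 8 squamous cell carcinomas of the skin, 4 perineal, 3 perioral and 1 periorbital. The other 40 samples were dissociated cells held back by magnetic beads against Prominin1, the protein of Prom1. Of these, 3 came from neonatal liver, 9 from liver after DDC, an agent that injures bile ducts and hepatocytes, and 5 from untreated liver. Uterus, kidney and lung gave 4 samples each, prostate, salivary gland and small intestine 3 each, and stomach 2. Alleles, strains and ages, beyond the word neonatal, were not stated in the labels used here. No label ties a sample to its own animal, and p-values therefore reflect the spread among samples, some of which may be technical.

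In the Hippo pathway the kinases Stk3 and Stk4 activate Lats1 and Lats2, which phosphorylate YAP and its paralog TAZ (gene Wwtr1) and hold them out of the nucleus. When the kinases are inactive, YAP and TAZ bind TEAD transcription factors and raise genes that include the ones listed here. Ccn1 and Ccn2 encode secreted matricellular proteins, Ankrd1 encodes an ankyrin repeat protein of the nucleus and sarcomere, and the rest feed back on the pathway: Lats2 is a kinase that inhibits YAP, Amotl2 is an angiomotin that retains YAP at junctions and in the cytoplasm, and Ajuba is a LIM domain scaffold that restrains Lats kinases. YAP activity is known for its part in liver size, in regeneration of liver and intestine, and in tumours of several organs.

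The stretches before the transcription starts are shown because TEAD factors are the DNA-binding partners of YAP. The genes were listed as known readouts of YAP, so a TEAD motif near their starts may not be independent of that choice. RefSeq promoter windows on GRCm38.p6, running from 250 bases before to 50 bases after a start, were found for 6 of the 7 genes, Ccn2 being the one without an entry. The letters GGAATG, the core bound by TEAD factors, or CATTCC, the same core read on the opposite strand, occurred in a window of each of these 6 genes. Across all 32851 windows of this length 14.7% held the motif on either strand, and 1.36% held it more than 1 time, as Ajuba and Ankrd1 did. In the 250 bases before the start alone, 5 of the 6 genes held it, against 12.6% of all windows. The AP-1 motif TGANTCA, searched in the same windows, was in none of the 6 genes and in 7.81% of all windows. Before the start, the motif began at 186 and 164 bases in Ajuba, 210 and 123 in Ankrd1, 65 in Amotl2 and 233 in Axl. In Lats2 it began 5 bases after the start, and the other listed start of Lats2 held none. The matches describe letters in these windows and are not measured binding sites. Each line below reads 5′ to 3′ on the strand of the gene, with the motif in capitals: Ccn1 at chr3:145649986-145650135 (minus strand), Ajuba at chr14:54577662-54577911 (minus), Ankrd1 at chr19:36119845-36120094 (minus), Amotl2 at chr9:102717654-102717803 (plus) and Lats2 at chr14:57746102-57746131 (minus).
Ccn1: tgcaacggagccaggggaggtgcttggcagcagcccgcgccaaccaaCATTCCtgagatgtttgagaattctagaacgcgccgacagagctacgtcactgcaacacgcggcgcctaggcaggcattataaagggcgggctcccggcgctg
Ajuba: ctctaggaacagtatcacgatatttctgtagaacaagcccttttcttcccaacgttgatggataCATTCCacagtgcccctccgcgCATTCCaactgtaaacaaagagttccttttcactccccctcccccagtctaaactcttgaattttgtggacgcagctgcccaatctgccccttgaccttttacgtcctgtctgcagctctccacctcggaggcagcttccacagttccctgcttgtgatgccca
Ankrd1: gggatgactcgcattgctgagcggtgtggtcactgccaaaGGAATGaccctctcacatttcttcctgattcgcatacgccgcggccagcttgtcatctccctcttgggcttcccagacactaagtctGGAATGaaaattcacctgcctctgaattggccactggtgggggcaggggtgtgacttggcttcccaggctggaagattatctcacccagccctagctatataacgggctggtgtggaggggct
Amotl2: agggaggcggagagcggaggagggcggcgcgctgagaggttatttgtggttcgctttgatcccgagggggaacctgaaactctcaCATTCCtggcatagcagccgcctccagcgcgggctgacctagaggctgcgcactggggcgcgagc
Lats2: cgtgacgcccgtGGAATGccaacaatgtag

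Levels are the deposited log2 values, so a difference of 1 is a 2-fold change, and they are compared between samples for 1 probe set at a time, never between genes. Differences are limma estimates ± standard error with p-values adjusted by Benjamini-Hochberg over all genes tested, and a gene was called when its adjusted p was under 0.05 and its log2 difference at least 1 in size. A gene was tested when its mean in a compared group was above the 40th percentile of all values in the fit, which was 4.06 for sorted cells, 4.11 for primary tumours and 4.09 for both. Levels under this filter level lie close to array background, and a difference against such a level may understate the true one. Array medians lay between 3.82 and 4.24, and array 75th percentiles between 5.77 and 6.71. Sets of epithelial markers were high in the sorted cells of their own organ, from a mean log2 level of 10.10 in uterus to 13.24 in salivary gland. For liver this held for hepatocyte markers (10.94 to 11.92 in untreated samples). Markers of cholangiocytes, the bile duct cells, were only at 3.57 to 4.05 in the same samples. Prom1 itself was under the filter level in 4 of 5 untreated liver samples (2.64 to 4.24) and in 2 of 9 DDC liver samples (3.31 to 9.31), while in the other sorted groups it ran from 5.30 to 12.19. Markers of gastric epithelium had a mean of 12.88 in stomach cells, 11.32 in gastric adenoma and 6.69 in gastric adenocarcinoma, and markers of prostate epithelium one of 6.55 in prostatic adenocarcinoma and 13.18 in prostate cells. In bulk samples of this kind, fewer cells of a type and less RNA per cell cannot be told apart.

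Across the sorted cells of the 8 organs, small intestine and stomach had the lowest means for Ccn1, Ccn2, Amotl2 and Lats2, while the highest means were in salivary gland for Ccn1 and Ccn2, in lung for Amotl2 and Lats2, and in kidney and uterus for Ajuba. Over the 8 organs, 5 of 6 listed genes varied by the F test of limma, beside 86.5% of all genes tested, so this share says little about the list. Ankrd1 was the exception (adjusted p = 0.47 with limma), and only lung cells exceeded the filter level as a group.

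**Figure D1:**
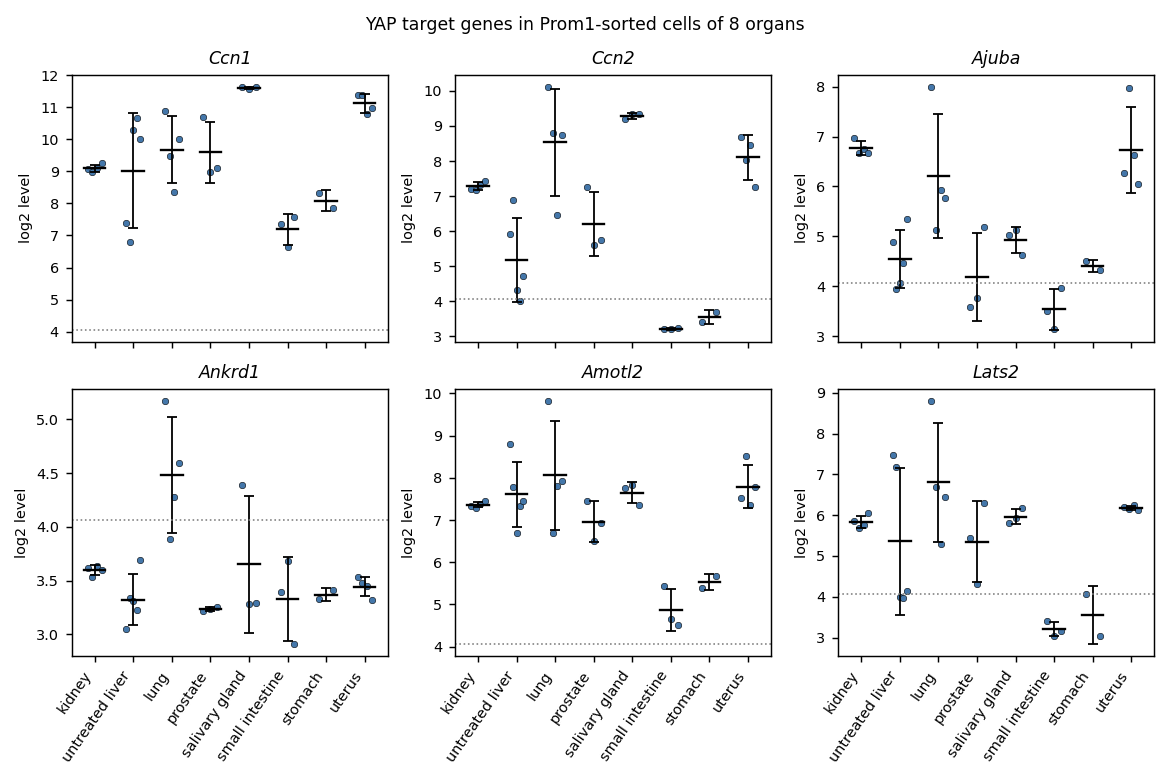
Log2 level of 6 YAP target genes in sorted cells of 8 organs, 1 point per sample, with the group mean as a bar, ± SD as whiskers and the filter level of 4.06 as a dotted line. Ccn2 lies under the line in every sample of small intestine and stomach and is highest in lung sample 1, at 10.12.

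Small intestinal cells had the lowest mean level of Ccn1, Ccn2, Ajuba, Amotl2 and Lats2 among the 8 organs. Ccn2 was at 3.20, 3.20 and 3.23 in small intestine, below all samples of the other 7 organs, which ran from 3.41 to 10.12. Ccn1 was at 7.37, 6.64 and 7.57 in small intestine, and its range of 6.79 to 11.64 in the other organs overlaps only through untreated liver samples 1 and 2, which were at 7.38 and 6.79. All 5 genes were called lower against the mean of the other organs, where 29.4% of genes were called and 15.1% were called lower. The differences were -3.67 ± 0.53 for Ccn2 (adjusted p = 8.5e-07 with limma), -2.55 ± 0.62 for Ccn1, -2.41 ± 0.36 for Amotl2, -2.37 ± 0.58 for Lats2 and -1.85 ± 0.45 for Ajuba. Each of these calls held with any 1 of the 28 samples left out, but Lats2 rests on 1 of its 5 probe sets, and its call was lost when the sets were averaged (-0.71) and with either of 2 other sets. Among 15 other YAP targets measured, 7 were lower and 2 higher there, with a median difference of -1.06 beside 0.03 for all genes. Myof, a membrane repair protein, was lower (-2.89 ± 0.38), as was the TAZ gene Wwtr1 (-2.45 ± 0.46).

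Stomach cells resembled small intestine for 3 genes. Ccn2 was at 3.41 and 3.70 in stomach, Amotl2 at 5.39 and 5.67, and Lats2 at 4.06 and 3.05. The 3 were called lower than the mean of the other 7 organs, with differences of -3.27 ± 0.64, -1.66 ± 0.43 and -1.98 ± 0.69, where 19.1% of genes were called and 10% were called lower. Leaving out stomach sample 1 left only Ccn2 called, and leaving out sample 2 took away Lats2. The Lats2 call was also lost with the mean of its probe sets (-0.43) and with either of 2 other sets (-0.41 and -0.10). Ccn1, at 8.32 and 7.86, had its second lowest organ mean in stomach without being called. Wwtr1 was also lower in stomach cells (4.13 against 7.91 in the other organs, a difference of -3.77 ± 0.55, adjusted p = 1.9e-06 with limma).

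The secreted factors were highest in salivary gland, uterus and lung. Salivary gland cells held Ccn1 at 11.62, 11.58 and 11.64, above each of the 25 samples of the other 7 organs (6.64 to 11.37). Ccn2 was at 9.19, 9.33 and 9.34 in the same cells and was exceeded only by lung sample 1. The differences were 2.50 ± 0.62 for Ccn1 (adjusted p = 0.0019 with limma) and 3.28 ± 0.53 for Ccn2 (adjusted p = 9.9e-06), 2 of 6 genes beside 20.4% of all genes called and 10.9% called higher. Uterine cells had Ccn1 at 11.37, 11.37, 10.79 and 10.98 and Ccn2 at 8.68, 8.03, 8.45 and 7.25. Ajuba was at 6.26, 7.97, 6.63 and 6.05 in uterus, where only sample 2 came near the top of the range over the other organs (lung sample 1). The differences in uterus were 1.94 ± 0.55, 1.93 ± 0.47 and 1.79 ± 0.40, 3 of 6 genes beside 22.7% called and 15.3% called higher. Of 15 other YAP targets, 9 were higher in uterus and 0 lower, led by F3, the tissue factor of coagulation (5.45 ± 0.45).

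Immediate early genes are transcribed within minutes of a stimulus such as dissociation. They were high in salivary gland and uterus, where Ccn1 and Ccn2 were high, and in lung, where Ccn2 was high. In small intestine they and both genes were low, while in kidney and stomach the levels did not run in the same order. Of 13 measured, 12 were higher in salivary gland, 10 were higher in uterus, 12 were lower in kidney and 10 were lower in small intestine. Their summed log2 level ran from 152.9 to 153.7 in salivary gland, from 144.8 to 150.7 in uterus, from 107.5 to 111.1 in small intestine and from 98.0 to 100.6 in kidney. In stomach the sum was 125.9 to 127.7, above the 102.6 to 117.5 of untreated liver, while the means of Ccn1 and Ccn2 were lower in stomach (8.09 and 3.55) than in untreated liver (9.02 and 5.17). Kidney cells held Ccn1 at 8.99 to 9.25 with the lowest immediate early sum of the 8 organs. Lung cells, with mean immediate early levels of 10.45 to 10.77, held Ccn2 at 6.47 to 10.12. The part of immediate early genes in the results was not tested.

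Lung cells held 5 listed genes called higher (31.4% of all genes were called, 12.8% higher), but 1 sample carried most of this. Lung sample 1 had Ccn2 at 10.12, Ajuba at 8.0, Ankrd1 at 5.17, Amotl2 at 9.82 and Lats2 at 8.80, the highest value of each gene among the 8 organs. The other lung samples had Ccn2 at 8.80, 6.47 and 8.74 and Lats2 at 6.68, 5.30 and 6.45. Ccn2 differed from the mean of the other organs by 2.42 ± 0.47 (adjusted p = 6.7e-05 with limma), and without lung sample 1 it was the only gene of the 5 still called. Endothelial markers moved with that sample: their mean log2 level was 10.28 in lung sample 1 and 7.49 to 8.82 in the other 3, and the array's 75th percentile was 6.69 in sample 1 and 5.77 to 6.39 in the others. The part of endothelial cells and of the arrays in the result was not tested.

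Kidney, prostate and untreated liver cells had at most 1 of the 6 genes called. Kidney cells had Ajuba at 6.97, 6.68, 6.75 and 6.68, a difference of 1.84 ± 0.40 (adjusted p = 2.3e-04 with limma) and the only call of 6 beside 33.5% of all genes called and 16.3% called higher. Prostate cells had none of the 6 called, beside 17.7%, with Ajuba the only gene at an unadjusted p under 0.05. Untreated liver cells had only Ccn2 called, at -1.42 ± 0.43 and beside 28.3% called and 18.2% called lower, and this call was lost with untreated samples 1 and 2 alone (-0.19). When the organs were ranked by mean level for each gene, only 1 neighbouring pair differed by limma, prostate above stomach for Amotl2 (a difference of 1.43, adjusted p = 0.045), so the middle ranks have no firm order.

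In liver, Ccn2 and Ajuba were raised after injury and in newborns, while Amotl2 and Lats2 were not called in either. Sorted cells of neonatal liver and of DDC liver share the untreated liver samples as their control. The log2 difference between the 3′ and 5′ control probe sets of GAPDH, which grows as RNA degrades, was 0.345 to 0.413 in neonatal cells and 0.249 to 0.551 after DDC, against 0.899 to 1.229 in untreated cells, with no overlap, and the part of RNA quality in the results was not tested. Ccn2 was at 10.38, 8.86 and 10.35 in neonatal cells, against 5.91, 6.90, 4.32, 4.01 and 4.73 in untreated cells. After DDC its lowest, median and highest levels were 6.89, 8.72 and 10.14, and only untreated sample 2, at 6.90, overlapped with the lowest injured sample. Ajuba was at 8.72, 7.74 and 8.44 in neonatal cells and between 5.43 and 8.12 (median 7.49) after DDC, against 4.89, 3.95, 4.07, 4.47 and 5.34 in untreated cells, with no overlap in either comparison.

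Neonatal cells differed from untreated cells by 4.69 ± 0.64 for Ccn2 (adjusted p = 4.8e-07 with limma), 3.75 ± 0.54 for Ajuba, 2.68 ± 0.58 for Ankrd1 and 1.88 ± 0.74 for Ccn1 (adjusted p = 0.038). These are 4 of 6 genes, all higher, beside 30.7% of genes called and 22% higher. Ccn1 was at 11.06, 10.56 and 11.10 in neonatal cells, but its call was lost without any 1 neonatal sample, without untreated sample 1 or 2, and in 4 other settings. Among other YAP targets 7 of 13 tested rose and 0 fell, with Nt5e, the ectonucleotidase CD73, at 3.85 ± 0.67, and Tead2, a TEAD factor known from embryonic tissues, rose by 3.59 ± 0.43. All 6 measured cholangiocyte markers rose in neonatal cells beside these genes, with a summed log2 level of 43.5 to 48.6 in neonatal cells and 21.4 to 24.3 in untreated cells. Immediate early genes rose in 5 of 13, with sums of 119.0 to 123.7 in neonatal cells and 102.6 to 117.5 in untreated cells, which do not overlap. The part of both gene sets in the result was not tested.

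After DDC the differences were 3.33 ± 0.49 for Ccn2 (adjusted p = 2.4e-06 with limma) and 2.60 ± 0.41 for Ajuba (adjusted p = 7.1e-06), both kept with any 1 sample left out. Ankrd1 was the only other gene of the 6 called (1.09 ± 0.44, adjusted p = 0.047 with limma), giving 3 of 6 beside 21.7% of all genes called and 16.2% called higher, and this call was lost in 7 of 10 settings and in 9 of 14 fits that left out 1 sample. Its injured samples were at 3.17, 3.17, 3.89, 6.83, 4.45, 6.15, 5.80, 3.22 and 3.04 in order of sample number, against 3.05 to 3.69 in untreated cells. Samples 4, 6 and 7, with the highest Ankrd1, also had the highest mean level of 6 cholangiocyte markers, at 7.47, 6.88 and 6.96, while the other injured samples had 3.25 to 5.91, and the part of bile duct cells was not tested. Of 12 other YAP targets tested after DDC, 2 rose and 0 fell, Myof (2.24 ± 0.35) and Nt5e (1.73 ± 0.51), and of 19 Hippo pathway components 5 rose and 0 fell, among them Tead1 (1.11 ± 0.28).

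Samples of the same liver group differed in Ccn1 and Lats2, in opposite directions. Untreated samples 1 and 2 had Lats2 at 7.48 and 7.19 and Ccn1 at 7.38 and 6.79, whereas samples 3, 4 and 5 had Lats2 at 3.99, 3.98 and 4.14 and Ccn1 at 10.28, 10.66 and 10.00. Endothelial markers had a mean level of 10.45 and 10.51 in samples 1 and 2, against 7.15, 6.26 and 7.48 in the other 3, and macrophage markers one of 8.91 and 10.04, against 7.58, 7.92 and 7.09. DDC samples 1, 2, 4 and 5 had endothelial levels of 9.82 to 10.54 and Lats2 at 7.13, 7.29, 6.92 and 7.35, against 6.79 to 8.20 and 4.86 to 5.82 in the other 5. The part of endothelial cells and macrophages in these values was not tested. Over these samples Ccn2 and Ajuba kept their calls with untreated samples 1 and 2 left out or used alone, both settings chosen after the data were seen.

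**Figure D2:**
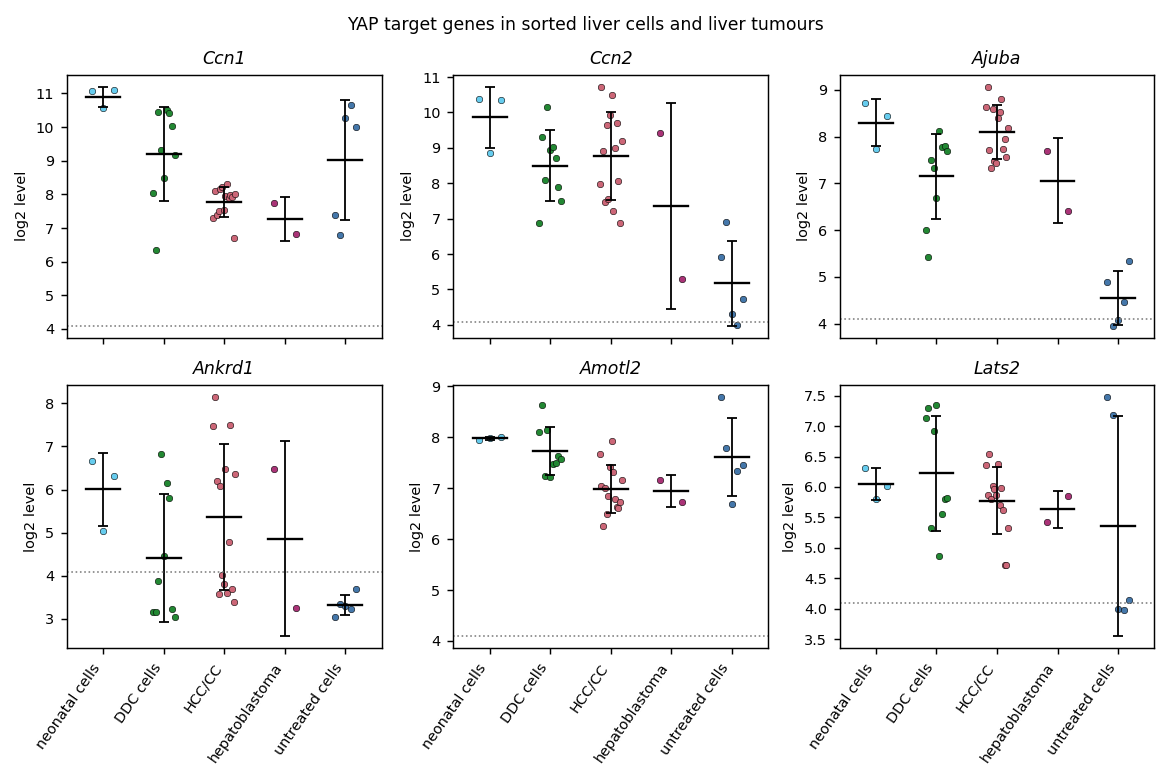
Log2 level of 6 YAP target genes in sorted liver cells of newborn, DDC-treated and untreated mice and in dissected liver tumours, 1 point per sample with the group mean, ± SD and the filter level of 4.09 as a dotted line. Ajuba in neonatal, DDC and HCC/CC samples lies above every untreated sample, and the untreated group splits in 2 for Ccn1 and Lats2.

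HCC/CC, set against the same untreated liver cells, also had higher Ccn2 and Ajuba, with Ccn1 lower. In HCC/CC the lowest, median and highest levels of Ajuba were 7.32, 8.07 and 9.07, all above the untreated range of 3.95 to 5.34, and the difference was 3.56 ± 0.29 (adjusted p = 1.2e-07 with limma). Ccn2 lay at 6.89, 8.96 and 10.73 and differed by 3.6 ± 0.60 (adjusted p = 1.3e-04), with 1 untreated sample at 6.90. Ankrd1 spread over 3.40, 5.44 and 8.15 in HCC/CC, with 6 of 14 tumours under the filter level, and differed by 2.04 ± 0.72 (adjusted p = 0.028 with limma). In all 4 of 6 genes were called, beside 23.6% of genes called, 17.4% higher and 6.23% lower. Of 12 other YAP targets tested 5 rose and 0 fell, among them Igfbp3 (3.94 ± 0.66) and Nt5e (3.46 ± 0.67), and of 19 Hippo pathway components 3 rose, including Tead1 (1.45 ± 0.37), and Amotl1, a paralog of Amotl2, fell (-1.39 ± 0.48). Fibroblast markers rose in 5 of 7 tested, with sums of 49 to 72.3 in HCC/CC and 43.2 to 48.5 in untreated cells, and endothelial markers fell in 7 of 10, with sums of 56.7 to 70.6 in HCC/CC and 62.6 to 105.1 in untreated cells. The 3′ minus 5′ difference of GAPDH was 0.150 to 0.703 in HCC/CC, against 0.899 to 1.229 in untreated cells, again with no overlap. The part of these cells and of RNA quality in the result was not tested.

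Ccn1 was the gene called lower in HCC/CC, at -1.24 ± 0.47 (adjusted p = 0.038 with limma), with levels of 6.69, 7.93 and 8.32. This call rests on the split among untreated samples. With untreated samples 1 and 2 alone the difference was 0.70 (adjusted p = 0.13), the opposite sign, and the call was also lost with the other Ccn1 probe set and without tumour 7 or 13 or untreated sample 3, 4 or 5. The Ankrd1 call was lost without untreated sample 1, 3 or 4. Hepatoblastoma, with only 2 tumours, had none of 6 genes called, beside 0.648% of all genes. Its Ajuba levels of 7.70 and 6.41 were above every untreated sample (2.51 ± 0.55, adjusted p = 0.12), and Ajuba alone had an unadjusted p under 0.05. Ccn2 was at 9.42 and 5.29 in the hepatoblastomas. In simulations of hepatoblastoma against untreated cells 34.8% of log2 changes of 3 were recovered. The simulation drew noise separately for each gene, so it does not give the share of such changes that would be detected here. Hepatoblastoma against HCC/CC had 0 of 6 called, beside 6.09%.

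Across the 8 comparisons of a tumour type with the sorted cells of its organ, liver included, tumours were whole tissue extracted with an RNeasy kit and sorted cells a bead-selected fraction extracted with a PicoPure kit, so tumour state, cell makeup and preparation cannot be told apart in these comparisons. Ccn2 and Ajuba were called higher in 6 of the 8 tumour comparisons, and Ccn1 was called higher in none. How many of all genes were called higher as often was not counted. The comparisons within liver shared their sorted cells, as did those within stomach. Immediate early genes were lower in most of these comparisons, with 13 of 13 lower in prostatic adenocarcinoma (median difference -2.51), 12 of 13 in uterine carcinoma (-3.98), 10 of 13 in lung adenocarcinoma (-2.36) and 9 of 13 in HCC/CC (-1.79, with 2 higher), gastric adenoma (-1.81) and gastric adenocarcinoma (-2.13). Fewer were lower in the other two, 4 of 12 tested in small intestinal adenoma (-0.52) and 2 of 12 in hepatoblastoma (-1.77). Their part in the levels of Ccn1 was not tested.

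**Figure D3:**
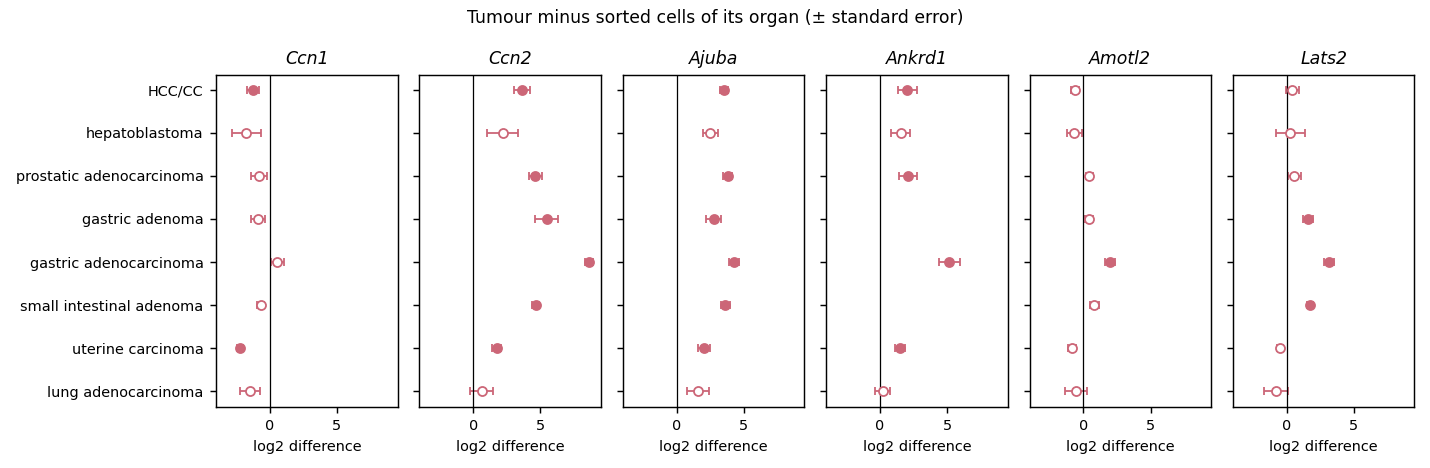
Log2 difference of each tumour type minus the sorted cells of its organ for 6 YAP target genes, with the standard error of limma (filled points called, open points not called, and no point for Ankrd1 in gastric and small intestinal adenoma, where it was below the filter). Ccn2 in gastric adenocarcinoma is the largest difference, at 8.59.

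Gastric adenocarcinoma had the largest Ccn2 difference of these 8 comparisons. Its 4 samples held Ccn2 at 11.61, 12, 12.52 and 12.45, against 3.41 and 3.70 in stomach cells, a difference of 8.59 ± 0.31 (adjusted p = 6.9e-06 with limma). Ankrd1 was at 7.61, 10.53, 7.71 and 8.30 in the tumours, against 3.33 and 3.41, and differed by 5.17 ± 0.78 (adjusted p = 0.0026). The stomach levels of both genes are under the filter level, and the 3′ minus 5′ difference of GAPDH was 0.322 to 0.464 in the tumours and 0.626 to 0.726 in stomach cells, its part not tested. None of the tumour samples overlapped with the stomach cells for Ccn2, Ankrd1, Ajuba, Amotl2 or Lats2. Stomach had only 2 samples, and the share of all genes without overlap was not counted.

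The pathway's own regulators rose with Ccn2 and Ankrd1. Ajuba was at 8.63, 7.93, 9.01 and 9.12 in gastric adenocarcinoma, against 4.50 and 4.33 in stomach cells (4.26 ± 0.39, adjusted p = 3.0e-04 with limma). Lats2 was at 6.66, 6.70, 6.77 and 6.66, against 4.06 and 3.05 (3.15 ± 0.37, adjusted p = 8.9e-04). Amotl2 was at 6.99, 8.15, 7.54 and 7.43, against 5.39 and 5.67 (2.0 ± 0.38, adjusted p = 0.0069). With these, 5 of 6 genes were higher, beside 28.4% of genes called and 17.9% higher, and Ccn1 was not called (0.54 ± 0.48, adjusted p = 0.41). The Lats2 call was lost with the mean of its probe sets (0.73) and with another set alone (1.03, adjusted p = 0.16 with limma). Among other YAP targets 12 of 14 tested rose and 0 fell, with a median of 2.53 beside 0.18 for all genes, led by the growth factor binding protein Igfbp3 (6.86 ± 0.41), the matrix protein Ccdc80 (4.55 ± 0.42) and Myof (3.86 ± 0.34). Of 19 Hippo pathway components tested 9 rose and 0 fell, with Wwtr1 at 5.79 ± 0.35 (9.92 in the tumours and 4.13 in stomach cells).

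Gastric adenoma shared the same stomach cells as control. Ccn2 had a lowest, median and highest level of 6.73, 9.08 and 10.70 in adenoma and differed by 5.46 ± 0.86 (adjusted p = 0.0044 with limma). Ajuba lay at 5.78, 7.14 and 8.16 and differed by 2.76 ± 0.57, and Lats2 at 4.55, 5.22 and 5.76 with a difference of 1.57 ± 0.37. These were 3 of 5 genes tested, beside 11.1% of all genes called and 8.07% called higher, but without stomach sample 2 only Ccn2 was called, and without sample 1 Ajuba was not. The Lats2 call also rests on a single probe set. Its next set by mean level was at 3.78 in adenoma and 3.53 in stomach cells on average, both under the filter level. Ankrd1 was below the filter in adenoma and in stomach cells, with 3.23, 3.77 and 4.54 in adenoma. Of 12 other YAP targets tested 8 rose and 0 fell, led by F3 (4.22 ± 0.72) and Igfbp3 (3.33 ± 0.73). Smooth muscle markers rose in 5 of 7, with sums of 45.6 to 58.7 in adenoma and 29.9 to 32.6 in stomach cells, and their part in the result was not tested.

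Gastric adenocarcinoma and gastric adenoma were both dissected tumours, and all 6 listed genes were higher in the carcinoma, beside 25.2% of genes called and 13.7% higher. Ankrd1 showed the widest gap, since every carcinoma was at 7.61 or above and every adenoma at 4.54 or below (4.65 ± 0.78, adjusted p = 4.6e-06 with limma). Amotl2 differed by 1.59 ± 0.27 (adjusted p = 4.7e-06), with adenomas from 5.49 to 6.62, and Lats2 by 1.57 ± 0.29 (adjusted p = 2.4e-05). Ccn2 differed by 3.13 ± 0.72 (adjusted p = 4.4e-04 with limma). These 4 genes had no overlap between the tumour types, and the share of all genes without overlap was not counted. Ajuba (1.5 ± 0.40) and Ccn1 (1.43 ± 0.47, adjusted p = 0.011) overlapped. The Ccn1 call was lost without carcinoma sample 2 (adjusted p = 0.082 with limma). The Lats2 call was lost with the mean of its probe sets (0.51) and with another set alone (0.78). Carcinoma sample 2 held the highest Ankrd1 (10.53), Ccn1 (9.61) and Amotl2 (8.15) of the 4, and its mean level was 6.99 for the cholangiocyte markers, which other epithelia share, and 5.87 for hepatocyte markers, while the other 3 had 9.43 to 10.03 and 3.64 to 4.54.

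Other genes of the pathway moved the same way between these tumours. Of 14 other YAP targets tested, 8 rose and 0 fell, with a median of 1.53 beside 0.09 for all genes, and examples were Igfbp3 (3.53 ± 0.72) and Ptpn14, a phosphatase that binds YAP (2.10 ± 0.47). Of 19 Hippo pathway components, 7 rose and 0 fell, including Tead2 (3.14 ± 0.50) and Wwtr1 (2.76 ± 0.27, adjusted p = 1.6e-11 with limma). Fibroblast markers moved with these genes. Of the 10 measured, 5 of 9 tested rose against adenoma and 8 of 9 against stomach cells, and their summed log2 level was 40.6 to 46 in stomach cells, where Col1a1, Col1a2, Pdgfra and Mfap5 were under the filter level, 52.1 to 69.1 in adenoma and 73.2 to 79.5 in carcinoma. Of macrophage markers 8 of 8 tested rose against adenoma, with a sum of 63.8 to 70.7 in carcinoma and 40.1 to 55.9 in adenoma. Endothelial markers rose in 3 of 8 tested, with sums of 45.8 to 60.6 in carcinoma and 42.7 to 52.6 in adenoma, and their mean level in carcinomas 1, 3 and 4 (6.06, 5.66 and 5.80) was above every adenoma. Smooth muscle markers did not follow, with 0 of 7 called and sums of 42.1 to 61.7 in carcinoma and 45.6 to 58.7 in adenoma. The part of fibroblasts, macrophages and endothelial cells in the result was not tested.

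**Figure D4:**
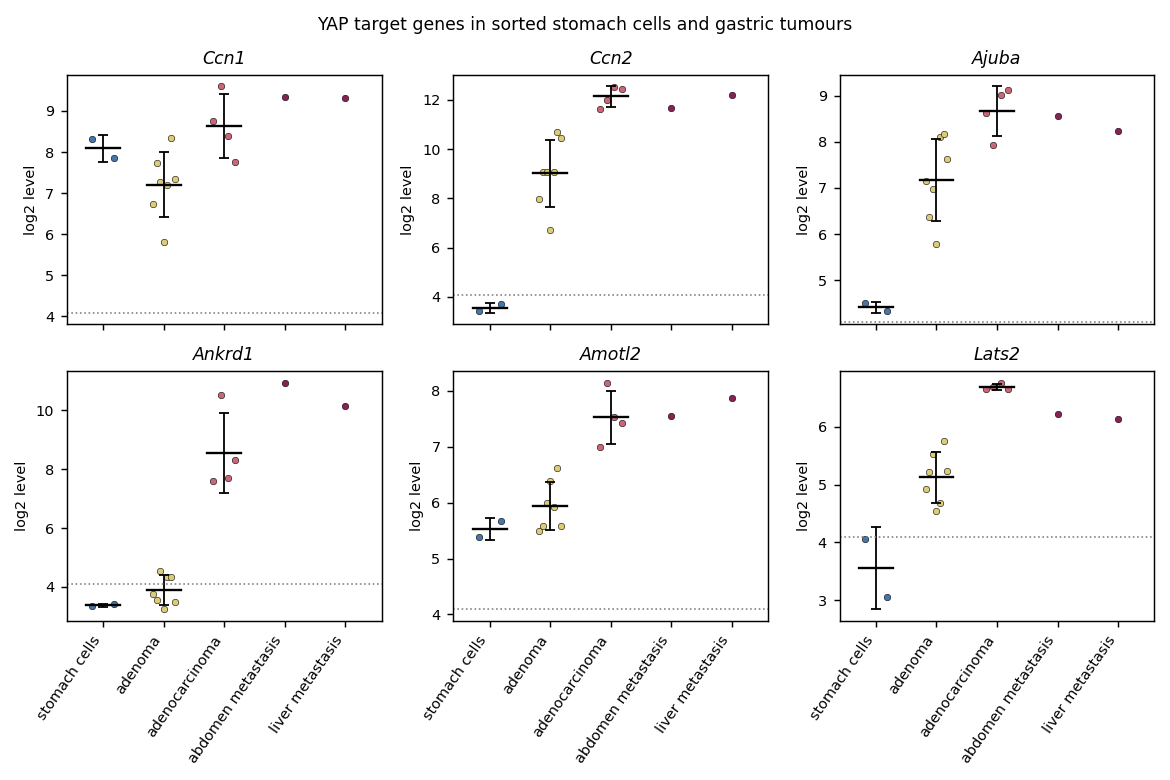
Log2 level of 6 YAP target genes in stomach cells, gastric adenoma, gastric adenocarcinoma and its abdomen and liver metastases, 1 point per sample with the mean and ± SD where a group has several samples and the filter level of 4.09 as a dotted line. Ankrd1 is at 4.54 or below in stomach cells and adenoma and at 7.61 or above in every carcinoma and metastasis.

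Small intestinal adenoma had 3 of 5 tested genes higher, beside 22% of all genes called and 13.6% higher. Ccn2 was at 7.89, 7.44 and 8.26 in adenoma, against 3.20, 3.20 and 3.23 in small intestinal cells (4.65 ± 0.27, adjusted p = 2.5e-04 with limma). Ajuba was at 7.48, 6.56 and 7.48, against 3.50, 3.15 and 3.97 (3.63 ± 0.35), and Lats2 at 5.25, 4.82 and 4.79, against 3.41, 3.05 and 3.17 (1.74 ± 0.24). The 3 genes kept their calls with any 1 sample left out. They did not overlap between the groups, though the share of all genes without overlap was not counted. The Lats2 call rests on a single probe set. Its next set by mean level was at 3.73 in adenoma and 3.07 in the cells on average, both under the filter level. Ccn1 was at 6.76, 6.28 and 6.46 in adenoma, which overlapped with 7.37, 6.64 and 7.57 in the cells (-0.69 ± 0.29, adjusted p = 0.11). Smooth muscle markers stood beside these differences, with 7 of 7 higher and a sum of 59.2 to 63.2 in adenoma and 23.3 to 25.9 in the cells, where only 1 of the 7 passed the filter level. The 3′ minus 5′ difference of GAPDH was 0.147 to 0.327 in adenoma and 0.457 to 0.631 in the cells, without overlap, and the part of muscle cells and of RNA quality was not tested. Of 12 other YAP targets tested 6 rose, with Igfbp3 at 3.66 ± 0.28, and 1 fell, and of 19 Hippo pathway components 8 rose and 0 fell, with Wwtr1 at 3.10 ± 0.31. Large intestinal adenoma had none of 5 tested genes called against small intestinal adenoma, beside 12.9% of all genes, and Ajuba alone had an unadjusted p under 0.05 (-0.97 ± 0.47).

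Prostatic adenocarcinoma had Ccn2 at a lowest, median and highest level of 9.88, 10.72 and 11.94, against 7.25, 5.61 and 5.74 in prostate cells. Ajuba lay at 7.37, 8.02 and 8.69 in the tumours, against 3.59, 3.76 and 5.19. The differences were 4.62 ± 0.49 for Ccn2 (adjusted p = 6.0e-05 with limma), 3.82 ± 0.33 for Ajuba (adjusted p = 1.7e-05) and 2.10 ± 0.68 for Ankrd1 (adjusted p = 0.028), 3 of 6 genes beside 21.1% called and 12.4% called higher. No tumour overlapped with the prostate cells for these 3 genes, a trait that was not counted over all genes. The Ankrd1 call was lost without any 1 prostate cell sample. Of 13 other YAP targets tested only Myof (2.35 ± 0.48) and Rbms3, an RNA-binding protein (2.24 ± 0.48), rose and 0 fell, and of 19 Hippo pathway components 5 rose and 0 fell, led by Tead1 (2.77 ± 0.20). Smooth muscle markers rose in 6 of 7 and fibroblast markers in 5 of 9, with sums of 50.9 to 68.5 and 65.3 to 95.0 in the tumours and of 35.0 to 38.8 and 53.4 to 71.8 in the cells. The 3′ minus 5′ difference of GAPDH was 0.375 to 0.951 in the tumours and 0.984 to 1.092 in the cells, also without overlap, and the part of these cells and of RNA quality was not tested.

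Uterine carcinoma separated Ccn1 from Ccn2. Ccn1 was at 9.34, 8.43 and 8.98 in the tumours, against 11.37, 11.37, 10.79 and 10.98 in uterine cells, lower in every tumour (-2.21 ± 0.24, adjusted p = 7.9e-04 with limma). Ccn2 was at 10.31, 9.78 and 9.42, against 8.68, 8.03, 8.45 and 7.25, higher in every tumour (1.74 ± 0.36, adjusted p = 0.010). Ajuba (2.02 ± 0.45) and Ankrd1 (1.48 ± 0.37) were also higher, giving 4 of 6 genes called beside 18.7% of all genes called, 8.57% higher and 10.1% lower. With all sorted and tumour groups in the fit, Ccn2 and Ankrd1 were no longer called while Ccn1 and Ajuba were, and Ankrd1 was also lost without uterine cell sample 2 or 3. Amotl2 and Lats2 lay below the uterine cells in every tumour without being called (-0.83 ± 0.29, adjusted p = 0.059, and -0.53 ± 0.23, adjusted p = 0.11). Other YAP targets went in both directions, with 4 higher, such as Fjx1 (1.71 ± 0.32), and 3 lower, such as F3 (-2.58 ± 0.38), of 14 tested. Yap1, which encodes YAP, rose by 1.01 ± 0.18 (adjusted p = 0.0056 with limma), 1 of 4 Hippo pathway components that rose of 19 tested. Macrophage markers fell in 8 of 8 tested and fibroblast markers moved in both directions (1 up and 1 down of 10), with sums of 57.7 to 67.0 and 69.6 to 86.5 in the tumours and of 85.6 to 93.8 and 80.5 to 90.1 in the cells, and their part was not tested.

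Lung adenocarcinoma had none of 6 genes called, beside 8.11% of all genes, and none at an unadjusted p under 0.05. Its 2 tumours held Ccn2 at 8.33 and 9.99 and Ccn1 at 7.21 and 9.18, both within the range of the lung cells or, for 1 Ccn1 value, below it. With 2 tumours, 7.6% of simulated log2 changes of 3 were recovered. Far fewer genes changed in the simulation than were called in the data, which makes its adjusted p-values stricter. It therefore does not give the share of such changes that would be detected here.

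Among the 11 groups of primary tumours, all 6 genes varied by the F test of limma, beside 81.6% of genes, so this says little about the list. Gastric adenocarcinoma was highest for Ccn2 (12.14 ± 0.43, SD), Ankrd1 (8.54 ± 1.36) and Lats2 (6.70 ± 0.05). Uterine carcinoma was highest for Ccn1 (8.92 ± 0.46), and perioral squamous cell carcinoma for Ajuba (9.36 ± 0.26) and Amotl2 (7.62 ± 0.26). Small intestinal adenoma was lowest for Ccn1, Amotl2 and Lats2, large intestinal adenoma for Ajuba and Ankrd1, and hepatoblastoma for Ccn2. Of the neighbouring groups in these orders, 3 pairs differed by limma. Ankrd1 was higher in gastric adenocarcinoma than in HCC/CC, the next group down (3.17, adjusted p = 1.5e-04), and Amotl2 was higher in perineal squamous cell carcinoma than in gastric adenoma (0.97, adjusted p = 0.0026) and in prostatic adenocarcinoma than in HCC/CC (0.42, adjusted p = 0.044).

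Squamous cell carcinomas of perineal and perioral skin had none of 6 genes called against the internal carcinomas, beside 24.3% of genes. Of the 6, 4 had an unadjusted p under 0.05 and 2 an adjusted one, and both of these fell short of the fold threshold. Ajuba was higher by 0.90 ± 0.29 (adjusted p = 0.0064 with limma) and Lats2 lower (-0.79 ± 0.21, adjusted p = 0.0013). Ajuba was at 8.42 to 9.65 in the 7 squamous tumours, against 7.29 to 9.15 in the 31 internal ones, and Lats2 at 4.90 to 5.57, against 4.71 to 6.88. Keratinocyte markers had mean levels of 11.43 to 12.61 in these skin tumours.

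Metastases had none of the 6 genes called against primaries, with tumour type in the fit of limma. Of 11057 genes 0 were called (0%) and 1034 had an unadjusted p under 0.05, and of the 6 listed genes 0 had. Ankrd1 was at 10.95 and 10.14 in the abdomen and liver metastases of gastric adenocarcinoma, against 7.61 to 10.53 in its primaries, and at 6.11 and 6.73 in the abdomen and liver metastases of uterine carcinoma, against 4.33 to 5.79. Lats2 was at 6.22 and 6.14 in the same gastric metastases, under the 6.66 to 6.77 of the primaries. These are single samples for each site, and hepatocyte markers had a mean level of 10.38 in the uterine liver metastasis.

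Ccn1 and Ccn2, the secreted members of 1 family, ran in parallel among tumours and among sorted cells but not across them. Over group means their Pearson r was 0.79 across the 11 tumour groups and 0.86 across the 10 sorted groups, and 0.20 across all 21. The median Ccn1 level was 7.84 in primary tumours and 9.74 in sorted cells, and that of Ccn2 was 9.48 in primary tumours and 7.47 in sorted cells. Ccn2 and Ajuba had an r of 0.80 across all 21 groups, and Amotl2 and Lats2 one of 0.83, with 0.97 among sorted groups. Groups share arrays, preparation and normalization, so these values are descriptions.

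**Figure D5:**
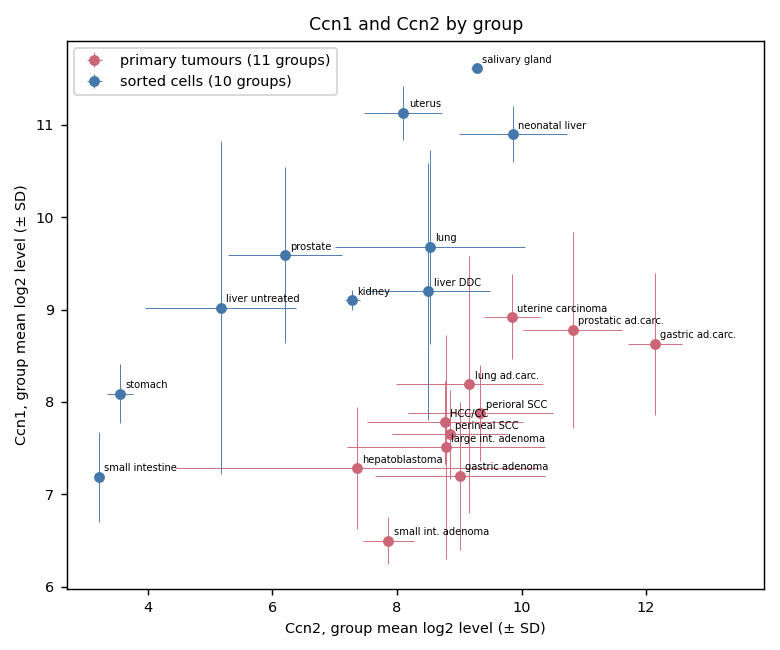
Group mean log2 level of Ccn1 (vertical) against Ccn2 (horizontal) with ± SD bars, for 11 primary tumour groups and 10 groups of sorted cells. Tumour means of Ccn1 lie between 6.50 and 8.92, while sorted means reach 11.61.

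The genes whose group means were most like those of a listed gene over the 21 groups, out of 13717 genes, were P2ry12 for Ccn1 (r = 0.877), Atxn1l for Ccn2 (0.836), 2610044O15Rik8 for Ajuba (0.888), Zfp248 for Ankrd1 (0.818), Rdx for Amotl2 (0.908) and Dennd5a for Lats2 (0.924). Dennd5a was also the next most like Amotl2 (0.896). Probe sets of the same gene ran together for Ccn1 (r = 0.96 over all samples) and Ankrd1 (0.98). For Lats2 the other 4 sets had r between -0.29 and 0.67 with the one used, and none of them exceeded 6.20 in any sample.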

How the data were processed

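RNA from 103 mouse samples was measured on Affymetrix arrays with perfect match probes. The authors deposited log2 values, made with Partek 6.6 per the submitters' processing notes. How they were background-corrected, normalized and summarized is not given in the sources used here. Values ran from 1.85 to 14.36. Of 45141 probe sets, 104 controls, 551 naming several genes and 15588 not listed in the annotation were left out, and 28896 remained for 17096 genes, named by the platform annotation and updated through RefSeq for 28689 probe sets. The highest correlation between arrays was 0.993, with differences of up to 1.75, so none was a copy. The number of arrays limits the precision.

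Genes were represented by the probe set with the highest mean and tested with limma 3.58.1 in R 4.3.3 (lmFit, contrasts, eBayes with an intensity trend), in 25 comparisons. Sorted groups shared 1 fit (40 samples) and primary tumours another (55 samples); tumours against cells were fitted on the compared groups alone, and metastases (7 against 23 primaries) with tumour type as a covariate. The fit was tested on simulated data. The periorbital tumour, alone in its group, entered no test. Named genes were the listed genes, up to 4 called genes of each pathway list per comparison with the largest difference, and the 3 genes most like each listed gene. The members and lists were chosen with earlier results of these data known. Alternatives were median centring, quantile normalization, the 60th percentile or no filter, other probe set rules, no trend, other samples in the fit, an HCC/CC split at title number 250, and each sample left out. Figures used matplotlib 3.10.9.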

Additional observations from a re-analysis of the deposited data

Results flagged for a closer look

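The response of the feedback genes Amotl2 and Lats2, tumour minus sorted cells of the organ, went in opposite directions in some tumour types. These pairs were picked because every tumour sample lay above the cells in 1 comparison and below them in the other. In each pair the falling side was uterine carcinoma, where neither gene was called. The difference between the 2 responses was then estimated in limma over 40 sorted and 55 tumour samples. For Amotl2 the difference was 2.0 in gastric adenocarcinoma and -0.83 in uterine carcinoma, 2.83 ± 0.58 apart (adjusted p = 1.1e-04). For Lats2 it was 3.15 in gastric adenocarcinoma and -0.53 in uterine carcinoma, 3.67 ± 0.83 apart (adjusted p = 3.4e-04 with limma). Each Lats2 value here rests on a single probe set, and the value of 3.15 was 0.73 with the mean of the sets. The contrast was not repeated with other sets. Lats2 in small intestinal adenoma, at 1.74, was 2.27 ± 0.80 above uterine carcinoma (adjusted p = 0.033), and in gastric adenoma, at 1.58, it was 2.10 above it without passing the test (adjusted p = 0.058). Because the contrasts were picked this way from the same data, a large difference was fixed in advance, and the adjusted p-values do not count as evidence for it. The stomach and small intestinal cells that enter these contrasts held the lowest Amotl2 and Lats2 levels of the sorted groups. No sample stood apart from its group by Dixon's test in 60 tests over 10 groups of 4 to 10 samples and 6 genes, where chance flags about 1 in 20.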

How the results depend on the processing

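Counts of listed genes called were within 1.5 times the reported count in all but 11 settings and all but 15 fits that left out 1 sample. With all groups in the fit, uterine carcinoma had 2 called (4 reported), hepatoblastoma 1 (0) and lung adenocarcinoma 1 (0). Quantile normalization and median centring each gave 1 for prostate cells (0), the mean of probe sets gave 3 for lung cells (5), and HCC/CC with title numbers of at least 250 gave 2 (4). In settings chosen after seeing the data, lung cells had 1 without samples 1 and 3, untreated liver cells 2 without samples 1 and 2 and 3 with those alone (1 reported), and without the filter 2 neighbouring pairs differed (4 reported). Ccn1 in HCC/CC reversed to 0.70 with untreated samples 1 and 2 alone. The cause was not tested in these cases.

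With 1 sample left out, counts ranged from 2 to 4 for HCC/CC (2 without untreated sample 3 or 4), 1 to 5 for lung cells (1 without lung sample 1), 1 to 3 for gastric adenoma (1 without stomach sample 2) and for stomach cells (1 without stomach sample 1), 1 to 2 for kidney cells (2 without untreated liver sample 2 or lung sample 1), and 0 to 2 for squamous cell carcinomas (2 without perioral sample 1, 1 without lung adenocarcinoma 2). They ranged from 0 to 1 for hepatoblastoma (1 without hepatoblastoma 2), large intestinal adenoma (1 without large adenoma 1), lung adenocarcinoma (1 without lung cell sample 1) and prostate cells (1 without lung sample 1 or 2 or prostate sample 3). For single genes, 40 of 546 checks of a call in other settings lost it and 1 reversed, and 40 of 1382 with 1 sample left out lost it. Any check in which the gene fell below the filter was left out, so losses of that kind are missing from these counts. No paired analysis was possible because the labels carry no replicate numbers that groups share. Signal near the array background limits Ankrd1 most, which was under 4.09 in 29 of 40 sorted samples and 24 of 56 primary tumours.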

Other observations

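The single periorbital squamous cell carcinoma had Ccn2 at 4.93, against 7.93 to 10.39 in the other 7 squamous tumours, and Ccn1 at 6.43, against 7.20 to 8.43. Its Ajuba level of 9.17 and its Amotl2 level of 7.61 lay within the range of the others. The 3′ minus 5′ log2 difference of the control probe sets, which grows as RNA degrades, was 1.524 for actin and 1.249 for GAPDH on its array, against 0.546 to 0.877 and 0.146 to 0.418 in the other 7, and its part in these values was not tested. The hepatoblastoma metastasis to lung had Lats2 at 4.47, against 5.42 and 5.85 in the primaries.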
